A study of Mus musculus with 8 samples.

Results

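The CXC chemokine ligands described here are 9 genes, Cxcl1, Cxcl2, Cxcl3, Cxcl9, Cxcl10, Cxcl12, Cxcl14, Cxcl16 and Pf4, taken by gene symbol from the 17364 genes in the count files. The genes were grouped by what their proteins are known to do, into 3 neutrophil-attracting ligands (Cxcl1, Cxcl2, Cxcl3), 2 interferon-induced ligands (Cxcl9, Cxcl10) and 4 other ligands. All 9 were found in the files and all 9 passed the filter on low counts, which 12462 genes passed. The libraries came from bone-marrow-derived macrophages (BMDMs), macrophages grown in culture from mouse marrow. There were 4 libraries from Sept2C111A mice and 4 from wild-type (WT) mice, and every culture of both genotypes received 30 ng/ml of TNF-α for 24 h. TNF-α is an inflammatory cytokine that itself switches on several of these ligands. The series title sets the work in macrophage inflammation and migration, and names nitrosylated (SNO) septin 2. No untreated culture was analysed here, so the values describe the treated state only. The name of the allele gives a cysteine-to-alanine change in septin 2, a GTP-binding protein of the cytoskeleton. The sources used here do not give strain, sex, age, whether mice were pooled, or whether the allele was carried in 1 or 2 copies. The labels do not say that the libraries came from separate mice or cultures, so the p-values may rest on technical spread alone.

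CXC chemokines are small secreted proteins, named for a pair of conserved cysteines with a single residue between them, that guide leukocytes along a gradient. Cxcl1, Cxcl2 and Cxcl3 carry a glutamate-leucine-arginine motif before these cysteines, bind the receptor Cxcr2 on neutrophils, and are early targets of NF-κB, the transcription factor that TNF-α activates. Cxcl9 and Cxcl10 lack that motif, are induced by interferons, and attract activated T cells and natural killer cells through Cxcr3. Of the others, Cxcl12 is made mainly by stromal cells and binds Cxcr4. Cxcl16 is a membrane-bound ligand of Cxcr6 that also acts as a scavenger receptor, and Pf4 (platelet factor 4, Cxcl4) is stored in platelets and also made by macrophages. Cxcl14 is a ligand whose receptor is less settled.

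In mouse the neutrophil-attracting genes, Pf4 and the interferon-induced genes lie on chromosome 5 (mm10). Pf4 (90772435 to 90773383), Cxcl3 (90786101 to 90788093), Cxcl1 (90891245 to 90893121) and Cxcl2 (90903899 to 90905938) fell within 134 kb of each other. Cxcl9 (92321331 to 92328079) and Cxcl10 (92346638 to 92348889) lay together 1415 kb further on. Cxcl12 lies on chromosome 6 (117168535 to 117181368), Cxcl16 on chromosome 11 (70454389 to 70459984) and Cxcl14 on chromosome 13 (56288643 to 56296811). The promoter sequences of the neutrophil-attracting and interferon-induced genes are shown because these classes are set side by side below. They come from RefSeq on GRCm38.p6, run 5′ to 3′ along the gene, and hold 250 bases before the annotated start site and 50 from it on. The windows are chr5:90890995-90891294 (plus strand) for Cxcl1, chr5:90903649-90903948 (plus) for Cxcl2, chr5:90785851-90786150 (plus) for Cxcl3, chr5:92328030-92328329 (minus) for Cxcl9 and chr5:92348840-92349139 (minus) for Cxcl10. Capitals mark matches on either strand to GGG, any 3 bases and TTCC, the letters of an NF-κB (κB) site, and to TTTC, any 2 bases and TTTC, those of an interferon-stimulated response element (ISRE).
Cxcl1: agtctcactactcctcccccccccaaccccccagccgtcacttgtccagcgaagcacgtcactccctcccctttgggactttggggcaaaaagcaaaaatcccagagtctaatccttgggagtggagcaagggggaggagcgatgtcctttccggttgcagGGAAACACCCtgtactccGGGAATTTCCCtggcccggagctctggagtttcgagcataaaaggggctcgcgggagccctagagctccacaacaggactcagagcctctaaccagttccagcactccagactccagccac
Cxcl2: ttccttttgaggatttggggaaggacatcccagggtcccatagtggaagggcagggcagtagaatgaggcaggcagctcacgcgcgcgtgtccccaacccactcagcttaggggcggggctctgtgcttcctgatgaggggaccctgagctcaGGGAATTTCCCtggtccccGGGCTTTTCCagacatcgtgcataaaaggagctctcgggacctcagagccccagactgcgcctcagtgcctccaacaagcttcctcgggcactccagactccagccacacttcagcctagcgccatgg
Cxcl3: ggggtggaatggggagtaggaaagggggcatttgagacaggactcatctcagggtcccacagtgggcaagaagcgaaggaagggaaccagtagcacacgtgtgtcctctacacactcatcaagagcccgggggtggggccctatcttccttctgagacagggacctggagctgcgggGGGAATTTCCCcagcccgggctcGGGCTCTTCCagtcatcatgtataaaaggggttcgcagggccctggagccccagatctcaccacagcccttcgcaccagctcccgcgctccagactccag
Cxcl9: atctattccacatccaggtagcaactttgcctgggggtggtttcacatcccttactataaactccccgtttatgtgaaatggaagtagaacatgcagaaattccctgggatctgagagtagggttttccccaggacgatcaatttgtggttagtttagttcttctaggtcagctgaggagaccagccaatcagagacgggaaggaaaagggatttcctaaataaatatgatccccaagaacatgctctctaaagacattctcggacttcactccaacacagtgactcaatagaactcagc
Cxcl10: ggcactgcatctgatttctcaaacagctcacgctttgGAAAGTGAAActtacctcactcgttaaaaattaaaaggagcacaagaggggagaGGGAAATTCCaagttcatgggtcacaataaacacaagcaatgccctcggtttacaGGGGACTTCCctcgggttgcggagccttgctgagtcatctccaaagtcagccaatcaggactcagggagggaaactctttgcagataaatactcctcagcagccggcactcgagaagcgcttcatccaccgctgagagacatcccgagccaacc

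Each of the 3 neutrophil-attracting promoters held GGGAATTTCC close to the start site, at -71 to -62 in Cxcl1, -97 to -88 in Cxcl2 and -73 to -64 in Cxcl3, counted from the start site as base 1. In each, GGGAAATTCC on the minus strand overlapped it, shifted by 1 base. A further κB match that did not overlap it read GGGTGTTTCC in Cxcl1 (minus strand, -89 to -80), GGGCTTTTCC in Cxcl2 (-78 to -69) and GGGCTCTTCC in Cxcl3 (-50 to -41). None of the 3 windows held the ISRE letters. The Cxcl10 window held 2 κB matches, GGGAAATTCC at -159 to -150 and GGGGACTTCC at -104 to -95, and 1 ISRE match, TTTCACTTTC on the minus strand at -213 to -204. The Cxcl9 window matched neither pattern. Of 32851 promoter windows of this length, 5.56% held the κB letters and 3.44% the ISRE letters. Among the other ligands, the windows of Cxcl12 and Pf4 matched neither pattern, Cxcl14 had 1 ISRE match and Cxcl16 is named only. The letters TATAAA were in 13.6% of all windows and, of these ligands, in Cxcl3 and Cxcl9. A match describes the letters and does not show that a factor bound there in these cells.

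Library totals ran from 19543958 to 21288493 expected counts, a narrow range, so depth differed little between libraries. Sept2 itself (listed as Septin2) measured 187, 195, 207 and 163 CPM in Sept2C111A libraries and 228, 226, 216 and 234 CPM in WT libraries (log2 fold change -0.27, edgeR adjusted p = 0.063). CPM are a gene's reads scaled to 1 common size of the normalized library. Gene counts do not show the changed codon. In a principal component analysis of log2 CPM, Sept2C111A libraries 2 and 3 stood apart from the others on the first axis. Libraries varied more among Sept2C111A (biological coefficient of variation 0.138) than among WT (0.0604). All 10 macrophage markers had reads in every library, and their summed level was 21755 to 23824 CPM in Sept2C111A and 24155 to 25914 CPM in WT libraries. Lyz2 led this sum, with means of 12366 and 14365 CPM. The 10 markers did not move together, with 5 positive and 5 negative log2 fold changes, against 6460 positive among all 12462 tested genes. All 12 stromal markers were found, 11 of them with reads in every library, and their sum was 4383 to 6151 CPM in Sept2C111A and 6345 to 8013 CPM in WT libraries, led by Col1a1. The sum of 10 neutrophil markers was 166 to 218 CPM in Sept2C111A and 134 to 171 CPM in WT libraries. Most of it was Csf3r, a receptor gene (186 ± 27.1 and 137 ± 18.5 CPM). Of the 10 neutrophil markers 7 had reads in every library, namely Csf3r, Mmp8, S100a8, S100a9, Ngp, Ltf and Camp. The remaining markers, Ly6g, Mpo and Elane, had 0 or about 1 read per library. Summed levels of 8 lymphocyte, 8 endothelial and 7 dendritic cell markers were 19.1 to 24.4, 2.28 to 2.93 and 393 to 659 CPM in Sept2C111A and 15.2 to 16.5, 1.91 to 2.77 and 232 to 283 CPM in WT libraries. Cd4 led the lymphocyte and Bst2 the dendritic cell sum, while no endothelial marker led in both genotypes; Bst2 is also an interferon-induced gene.

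The 3 neutrophil-attracting genes all fell in Sept2C111A libraries, and none of the other 6 ligands passed the test. Genes with an adjusted p under 0.05 in edgeR's quasi-likelihood test, Benjamini-Hochberg adjusted over all 12462 tested genes, were taken as called. Of those genes 6.46% were called in either direction, 3.43% higher and 3.03% lower, against 3 of 9 CXC ligands called lower and 0 called higher. In the same fit 6 of the 9 had an unadjusted p under 0.05, as had 24.8% of all tested genes. DESeq2 and limma voom also called no CXC ligand higher. Without Sept2C111A libraries 2 and 3 together, 4 were called lower, with 3.86% of all tested genes called in either direction. The median log2 fold change was -0.45 over the 9 ligands and 0.01 over all tested genes. By class the median was -1.26 for the neutrophil-attracting, -0.43 for the interferon-induced and -0.17 for the other ligands. These are bulk cultures, in which fewer cells of a type and less RNA per cell cannot be told apart.

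**Figure D1:**
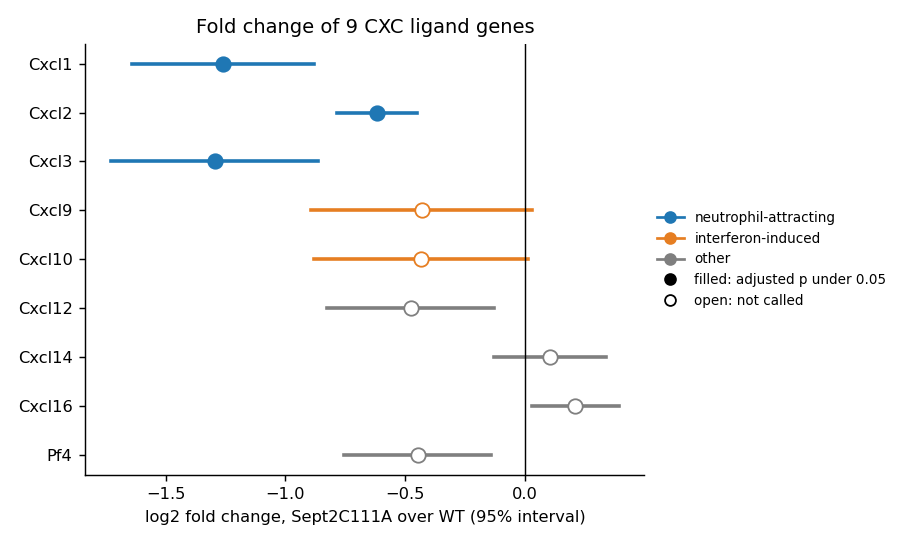
Log2 fold change of Sept2C111A over WT (x axis) with its 95% interval for each of the 9 CXC ligands (rows), coloured by class; filled points were called at an adjusted p under 0.05. The intervals of Cxcl1, Cxcl2 and Cxcl3 lie wholly below 0, while those of Cxcl9, Cxcl10 and Cxcl14 include 0. Those of Cxcl12 and Pf4 also lie wholly below 0 and that of Cxcl16 wholly above it, though none of these 3 was called.

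Cxcl1, a neutrophil attractant first known in mouse as KC, measured 5.11, 3.23, 2.85 and 3.50 CPM in Sept2C111A libraries 1 to 4, against 8.54, 8.35, 10.4 and 8.07 CPM in WT libraries 1 to 4. The groups did not overlap, and the highest Sept2C111A value was library 1. These levels rested on 56 to 108 reads per Sept2C111A library and 169 to 221 reads per WT library. The log2 fold change was -1.26 (SE 0.17, edgeR adjusted p = 0.0021), a level 0.417 times that of WT.

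Cxcl2, also known as MIP-2 and the most abundant ligand of its class, measured 146, 131, 120 and 119 CPM in Sept2C111A libraries, against 209, 200, 195 and 186 CPM in WT libraries. Every Sept2C111A library lay below every WT library, and the values within a genotype were close together. The means were 129 ± 12.5 CPM and 197 ± 9.51 CPM (SD, n = 4 each), with a log2 fold change of -0.62 (SE 0.076, edgeR adjusted p = 0.0012). Among the 9 ligands this was the smallest SE, and Cxcl2 had between 2361 and 4374 reads in every library.

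Cxcl3, a close relative of Cxcl2, measured 7.33, 4.19, 5.04 and 4.68 CPM in Sept2C111A libraries, against 15.5, 14.9, 12.7 and 9.26 CPM in WT libraries. The groups did not overlap, but WT library 4 lay nearer to the Sept2C111A values than the other WT libraries did. The log2 fold change was -1.30 (SE 0.20, edgeR adjusted p = 0.0040). The groups did not overlap for these 3 of the 9 ligands, and for 16.9% of all tested genes, 8.47% in the lower direction. Cxcl1, Cxcl2 and Cxcl3 were each called lower in all 18 alternatives of processing, with adjusted p-values of at most 0.020.

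**Figure D2:**
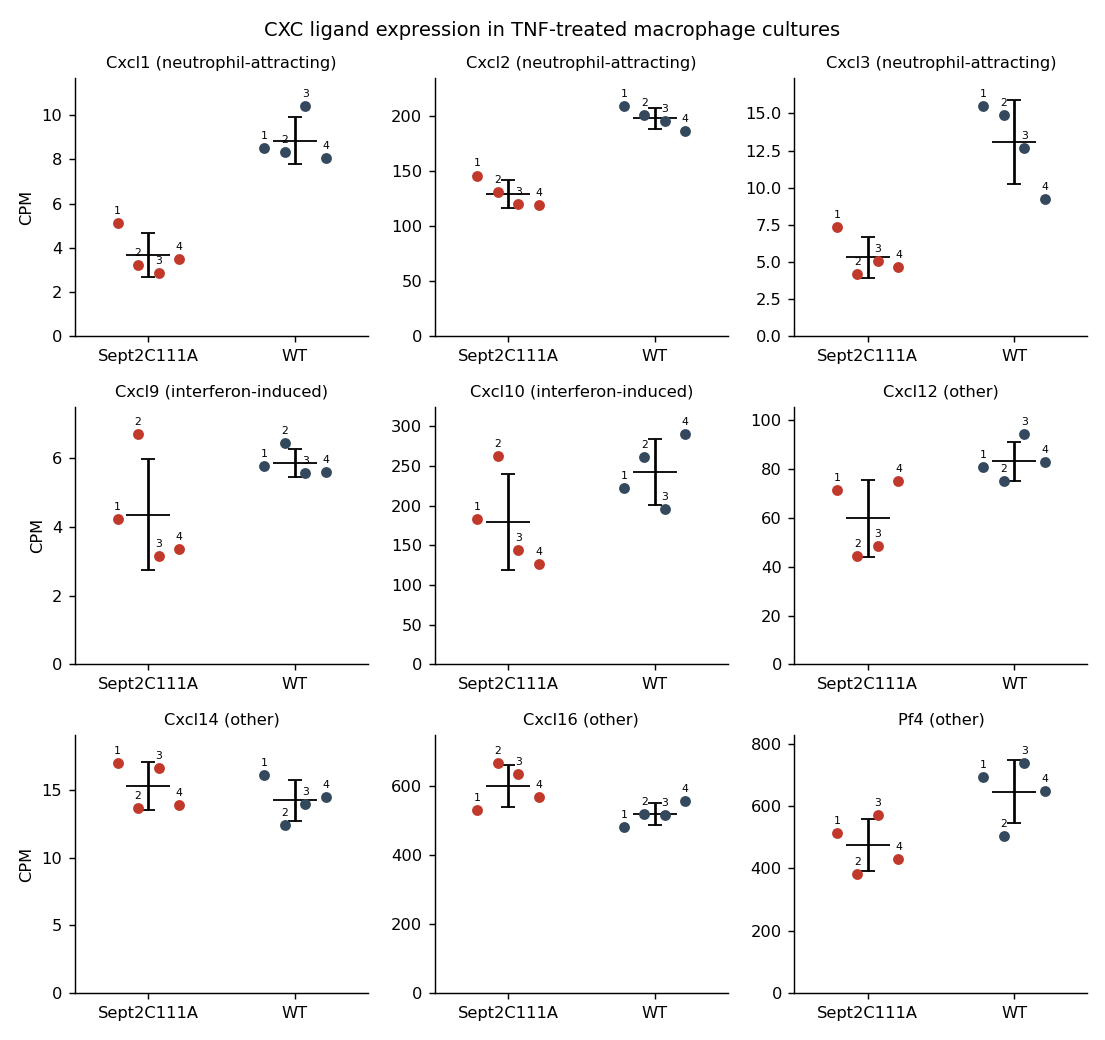
CPM (y axis, from 0) of each CXC ligand in the 4 Sept2C111A and 4 WT libraries; points are libraries with their numbers, and bars are the mean ± SD. For Cxcl1, Cxcl2 and Cxcl3 all Sept2C111A points lie below all WT points, and for the other 6 genes the groups overlap.

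The 3 genes are related in sequence, and reads could be shared between them. Of the 50-base windows of the longest GENCODE transcript of Cxcl3, 6.31% also occurred in a Cxcl2 transcript, and no such window was shared between any other members. The split of reads between Cxcl2 and Cxcl3 is therefore uncertain. Of the 50-base windows of the longest Cxcl2 transcript, 3.37% occurred in a Cxcl3 transcript. Cxcl2 had 2361 to 4374 reads per library, against 78.5 to 325 for Cxcl3. Misplaced Cxcl2 reads could thus change Cxcl3 by more than 6.31%, and the size of this effect was not tested. The sum of Cxcl2 and Cxcl3, which does not depend on the split, was 153, 135, 125 and 123 CPM in Sept2C111A libraries. In WT libraries it was 224, 215, 208 and 195 CPM, again without overlap. Cxcl2 made up most of this sum in every library, so its lack of overlap repeats that of Cxcl2 and does not bear on Cxcl3. The reads of Cxcl1 relative to those of Cxcl2 in the same library were also lower in Sept2C111A than in WT libraries. The log2 ratio of Cxcl1 to Cxcl2 reads was -4.83, -5.33, -5.39 and -5.07 in Sept2C111A libraries and -4.61, -4.58, -4.22 and -4.52 in WT libraries. The log2 ratio of Cxcl3 to Cxcl2 was -4.31, -4.96, -4.57 and -4.65 in Sept2C111A libraries and -3.75, -3.75, -3.94 and -4.32 in WT libraries, where Sept2C111A library 1 and WT library 4 overlapped. These ratios are given as a description.

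The interferon-induced ligands were lower on average in Sept2C111A libraries, but neither passed the test in edgeR, DESeq2 or limma voom, and neither had an unadjusted p under 0.05 in edgeR. Cxcl10, also called IP-10, measured 184, 263, 144 and 127 CPM in Sept2C111A libraries, against 222, 261, 196 and 290 CPM in WT libraries. Sept2C111A libraries 1, 3 and 4 lay below every WT library, while library 2 lay above WT libraries 1, 2 and 3. This gave a log2 fold change of -0.43 (SE 0.20, 95% interval -0.88 to 0.01, edgeR adjusted p = 0.21).

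Cxcl9, also called MIG, was the scarcest of the 9 ligands per transcript length. It measured 4.21, 6.68, 3.15 and 3.36 CPM in Sept2C111A libraries, against 5.77, 6.44, 5.56 and 5.58 CPM in WT libraries. As with Cxcl10, Sept2C111A library 2 was the highest of its genotype, and for Cxcl9 it was the highest of all 8. Among WT libraries the genes differed, with Cxcl9 highest in library 2 and Cxcl10 in library 4. Its log2 fold change was -0.43 (SE 0.21, 95% interval -0.89 to 0.03, edgeR adjusted p = 0.23). Without Sept2C111A library 2 the log2 fold change of Cxcl9 was -0.70 and passed (edgeR adjusted p = 0.029), and that of Cxcl10 was -0.67 and did not (adjusted p = 0.053). Without Sept2C111A libraries 2 and 3 together Cxcl9 also passed, at -0.63 (adjusted p = 0.045). Across the alternatives, adjusted p-values spanned 0.029 to 0.41 for Cxcl9 and 0.053 to 0.41 for Cxcl10.

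Both classes varied among Sept2C111A libraries, but with different libraries at the top. Library 1 had the highest Cxcl1, Cxcl2 and Cxcl3 of its genotype, whereas library 2 had the highest Cxcl9 and Cxcl10. To compare the change of 1 gene from each of the 2 classes, reads of the most abundant gene of each were set against each other within a library, which needs no normalization. The log2 ratio of Cxcl2 to Cxcl10 reads was -0.33, -1.01, -0.26 and -0.10 in Sept2C111A libraries, and -0.09, -0.38, -0.01 and -0.64 in WT libraries. The ratios overlapped widely, and the difference of means, -0.15, had p = 0.63 in an exact two-sided permutation test whose smallest possible p is 0.029. Without Sept2C111A library 2 the difference was 0.046. A difference between Cxcl2 and Cxcl10 in their change was thus not shown. The test does not cover Cxcl1 and Cxcl3, whose log2 fold changes were -1.26 and -1.30, against -0.62 for Cxcl2. For comparison, the ratio of Cxcl9 to Cxcl10 differed by -0.01 between the group means, with values of -5.50 to -5.23 in Sept2C111A and -5.69 to -5.13 in WT libraries.

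**Figure D3:**
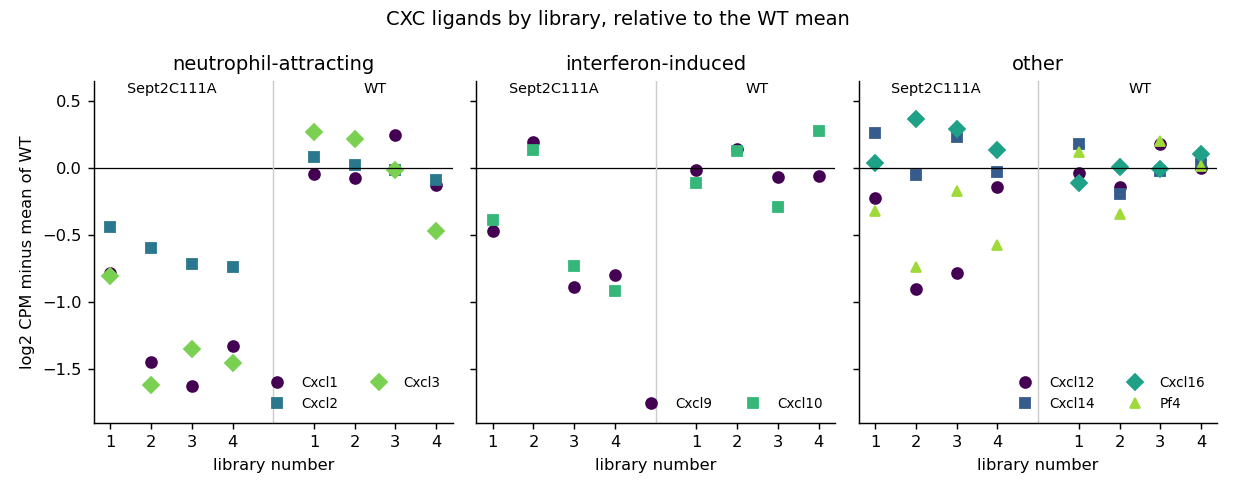
Log2 CPM minus the mean of the WT libraries (y axis) for each CXC ligand in each library (x axis, library number within a genotype), in 1 panel per class. Cxcl9 and Cxcl10 are highest in library 2 among Sept2C111A libraries, where Cxcl1, Cxcl2 and Cxcl3 are highest in library 1.

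None of the 4 other ligands was called in the main edgeR fit or in limma voom without sample weights, and their fold changes differed in sign. Of the 4, 3 had an unadjusted p under 0.05 in edgeR. DESeq2 and limma voom with sample weights each called 2 of them lower, Pf4 and Cxcl12. Pf4 measured 513, 384, 570 and 431 CPM in Sept2C111A libraries, against 695, 505, 739 and 650 CPM in WT libraries. Only WT library 2 lay within the Sept2C111A range. The log2 fold change was -0.45 (SE 0.14, 95% interval -0.75 to -0.14), with an edgeR adjusted p of 0.078. DESeq2 called Pf4 lower (adjusted p = 0.024), as did edgeR without Sept2C111A library 3 (0.034) or WT library 2 (0.049). It was also called lower in edgeR with the sample number as a replicate block (adjusted p = 0.017). Without Sept2C111A libraries 2 and 3 together it was not called in edgeR (adjusted p = 0.087). Pf4 is a classical platelet product, so platelet and megakaryocyte markers were measured beside it. The summed level of 9 such markers was 11.3 to 16.2 CPM in Sept2C111A and 15.3 to 18.7 CPM in WT libraries, 7 of the 9 had reads in every library, and Gp9 had 1 read in all 8 libraries together. These sums are small beside the level of Pf4 itself, and the part of such cells in the difference of Pf4 was not tested. Ppbp, the platelet CXC ligand whose gene neighbours Pf4, led that sum with 3.54 ± 1.50 CPM in Sept2C111A and 6.21 ± 1.06 CPM in WT libraries and was not called (log2 fold change -0.80, SE 0.27, edgeR adjusted p = 0.11). DESeq2 called it lower (adjusted p = 0.049).

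Cxcl12, which holds Cxcr4-bearing cells in the marrow, measured 71.2, 44.4, 48.3 and 75.0 CPM in Sept2C111A libraries, against 80.8, 75.0, 94.1 and 82.9 CPM in WT libraries. Sept2C111A libraries 2 and 3 were well below the other 6, and library 4 was level with WT library 2. The log2 fold change was -0.48 (SE 0.16, 95% interval -0.82 to -0.13, edgeR adjusted p = 0.095). Without Sept2C111A libraries 2 and 3 together it was -0.19 (adjusted p = 0.28), and without Sept2C111A library 4 it was -0.60 and passed (adjusted p = 0.018). DESeq2 called it lower as well (adjusted p = 0.036), as did limma voom with sample weights. The summed level of the 12 stromal markers was 5989, 4692, 4383 and 6151 CPM in Sept2C111A libraries 1 to 4 and 7494, 6345, 8013 and 7345 CPM in WT libraries 1 to 4. The lowest sums were in the same 2 libraries as the lowest Cxcl12. Of the 11 stromal markers tested 3 were called lower in edgeR, against 3.03% of all tested genes. All 11 had a negative log2 fold change, as had 6002 of all 12462 tested genes. An unadjusted p under 0.05 in edgeR was found for 8 of the 11, against 24.8% of all tested genes. The part of stromal cells in the difference of Cxcl12 was not tested.

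Cxcl16 and Cxcl14 were the ligands with positive fold changes. Cxcl16 measured 531, 667, 634 and 569 CPM in Sept2C111A libraries, against 480, 520, 517 and 556 CPM in WT libraries, so that Sept2C111A library 1 and WT library 4 overlapped. The log2 fold change was 0.21 (SE 0.083, 95% interval 0.03 to 0.39, edgeR adjusted p = 0.14), and it was called in none of the 18 alternatives. Cxcl14 measured 17.0, 13.7, 16.7 and 13.9 CPM in Sept2C111A libraries, against 16.1, 12.5, 14 and 14.5 CPM in WT libraries. The values were mixed between the genotypes (log2 fold change 0.10, 95% interval -0.13 to 0.34, edgeR adjusted p = 0.58). Its interval does not reach a change of the size seen in Cxcl1 or Cxcl3.

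Levels of different genes were compared per transcript length, as TPM, in which reads are divided by transcript length and scaled to the same total in every library, from the longest protein-coding GENCODE transcript. Pf4 was the most abundant ligand in both genotypes, at 1548 ± 228 TPM in Sept2C111A and 2270 ± 318 TPM in WT libraries, above every other member in every library. Cxcl16 came next, at 427 ± 34.5 TPM in Sept2C111A and 397 ± 24.1 TPM in WT libraries. Cxcl10 followed, at 255 ± 83.2 and 370 ± 64.7 TPM; its range lay below that of Cxcl16 in Sept2C111A libraries and overlapped it in WT libraries. Cxcl2 came after it at 134 ± 19.0 and 220 ± 13.3 TPM, below the range of Cxcl10 in both genotypes. None of the other 5 ligands exceeded 34.3 TPM in any library.

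Among these scarcer ligands, the order differed between the genotypes. In Sept2C111A libraries it was Cxcl12 (20.8 ± 7.10 TPM), Cxcl14 (16.2 ± 1.89), Cxcl3 (10.1 ± 3.02), Cxcl1 (7.51 ± 2.42) and Cxcl9 (2.90 ± 1.05). In WT libraries it was Cxcl12 (30.5 ± 2.55 TPM), Cxcl3 (26.7 ± 6.11), Cxcl1 (19.2 ± 2.29), Cxcl14 (16.1 ± 1.46) and Cxcl9 (4.18 ± 0.408). Neighbours from Cxcl12 down to the ligand before Cxcl9 overlapped in both genotypes, and Cxcl9 lay below all of them. Cxcl14 lay above Cxcl1 in all Sept2C111A libraries, where the ranges were 14.1 to 18.7 and 5.11 to 10.7 TPM, and the ranges of the same genes overlapped in WT libraries, at 14.6 to 18.1 and 17.2 to 22.5 TPM. With the median transcript length in place of the longest, the order over all 8 libraries was the same.

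**Figure D4:**
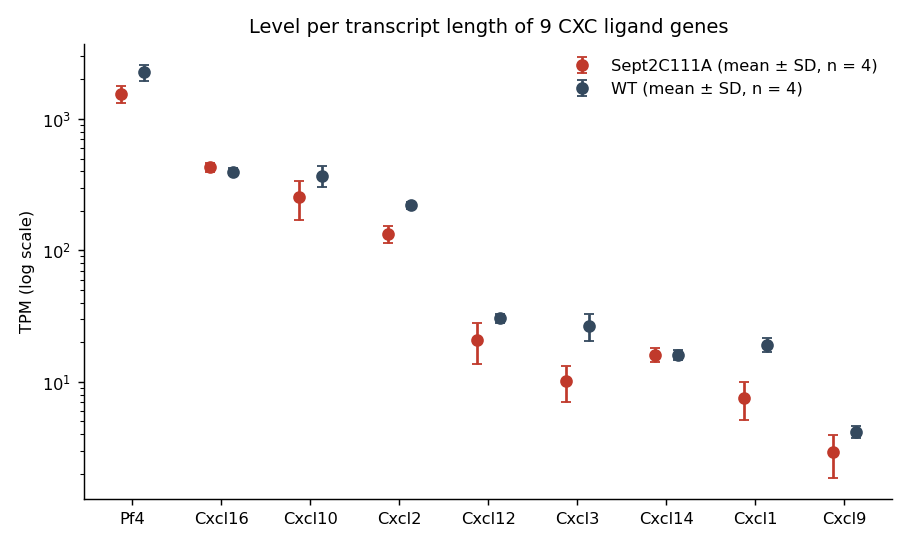
TPM on a log axis (y) for the 9 CXC ligands (x, in order of their mean over all 8 libraries), with the mean ± SD of the 4 Sept2C111A and the 4 WT libraries. Levels run from 1548 and 2270 TPM for Pf4 to 2.90 and 4.18 TPM for Cxcl9.

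As a share of all reads of the 9 ligands, Cxcl16 took 35.9% to 44.0% in Sept2C111A and 27.7% to 32.4% in WT libraries. Cxcl2 took 7.78% to 9.85% in Sept2C111A and 10.3% to 12.5% in WT libraries. Neither range overlapped between the genotypes, though a share also moves with the levels of the other ligands. The summed level of the 9 ligands was 1478, 1516, 1544 and 1346 CPM in Sept2C111A libraries and 1733, 1604, 1783 and 1802 CPM in WT libraries.

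The genes most like the leading ligand of each class were found by the smallest root mean square difference of centred log2 CPM over the 8 libraries, among 8307 genes averaging 10 CPM or more. Nearest to Cxcl2 were St3gal3, a sialyltransferase gene (difference 0.058), Tfec, a transcription factor gene of macrophages (0.064), Hmgcs1, the cholesterol synthesis gene (0.070), and Clec4e, which encodes the lectin receptor Mincle (0.072). All 4 were called lower, with log2 fold changes of -0.63, -0.66, -0.59 and -0.67 (edgeR adjusted p at most 0.0021). Clec4e measured 578 ± 67.2 CPM in Sept2C111A and 918 ± 57.9 CPM in WT libraries. Nearest to Cxcl10 were Rsad2, the interferon-induced gene of viperin (0.14), Cd69, an early activation antigen (0.17), Icosl, a costimulatory ligand (0.18), and Dusp2, a MAP kinase phosphatase gene (0.18). Rsad2 measured 191 ± 40.0 CPM in Sept2C111A and 272 ± 59.5 CPM in WT libraries and was not called (log2 fold change -0.51, edgeR adjusted p = 0.094), and of the 4 only Cd69 was called, lower, at -0.71. Nearest to Pf4, whose mean CPM over all 8 libraries was just above that of Cxcl16, were Timp1, an inhibitor of matrix metalloproteinases (0.086), Phgdh, a serine synthesis enzyme gene (0.087), Tpm2, a tropomyosin gene (0.089), and Tubb5, a tubulin gene (0.095). These likenesses describe 8 libraries, and the difference between the genotypes is part of the measure. Genes picked as nearest to a ligand therefore have fold changes near its own, and their calls are not a separate result.

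Among the receptors of these ligands, Cxcr4, the receptor of Cxcl12, rose in Sept2C111A libraries. It measured 67.5, 85.9, 88.3 and 81.4 CPM in Sept2C111A libraries, against 30.8, 37.9, 31.4 and 38.0 CPM in WT libraries. The groups lay far apart, with a log2 fold change of 1.23 (SE 0.10, edgeR adjusted p = 0.00028), and the rise was called in all 18 alternatives. It was the only one called of 4 receptors tested out of 8 in the list, against 6.46% of all tested genes called in either direction. Cxcr2, the receptor of Cxcl1, Cxcl2 and Cxcl3, measured 0.728 ± 0.203 CPM in Sept2C111A and 0.876 ± 0.185 CPM in WT libraries. Cxcr3, the receptor of Cxcl9 and Cxcl10, measured 0.670 ± 0.0687 and 0.545 ± 0.243 CPM, and the scavenging receptor Ackr3 1.44 ± 0.375 and 1.24 ± 0.0909 CPM. Cxcr1, Cxcr5, Cxcr6 and Ackr1 did not pass the filter on low counts, each at no more than 0.143 CPM in any library. Cxcr2, Cxcr3 and Ackr3 were not called and were named after their values were seen.

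**Figure D5:**
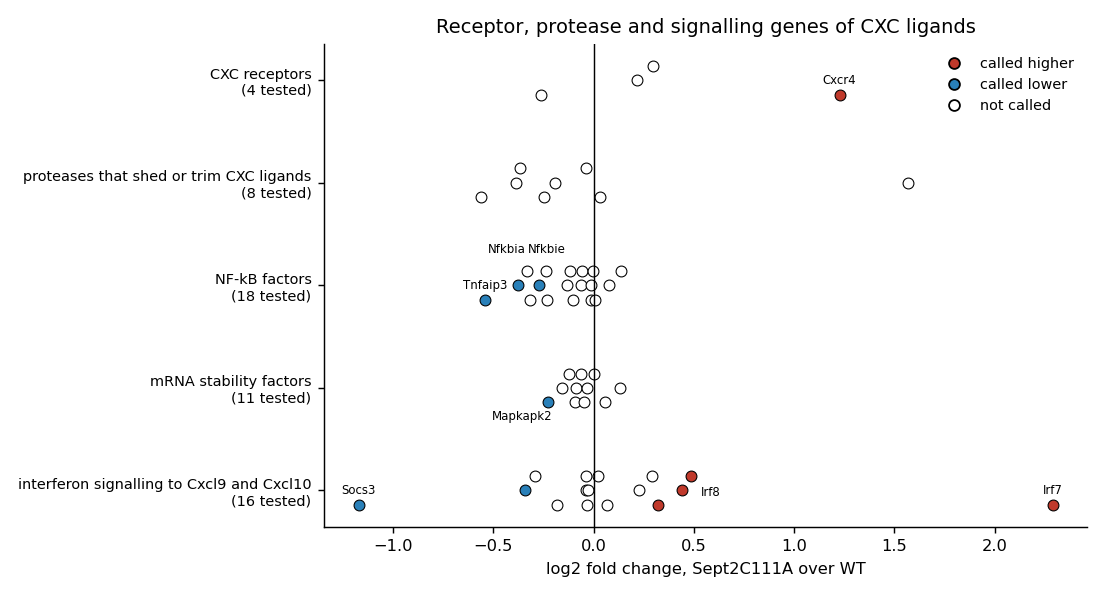
Log2 fold change of Sept2C111A over WT (x axis) for the tested genes of 5 lists (rows); each point is a gene, filled where it was called, and the called genes that the naming rule picks carry their symbols. Cxcr4 lies at 1.23 and Irf7 at 2.29, while most genes of the NF-κB and mRNA stability lists lie within 0.5 of 0.

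Other CXC ligands of the mouse were scarce. Of the 4 found in the files besides the 9, Ppbp is described above, and Cxcl5, Cxcl15 and Cxcl17 had at most 12.0, 3.07 and 1.00 reads in any library and were not tested. Proteases that release or trim CXC ligands had 0 of 8 tested genes called in the main edgeR fit and in limma voom without sample weights. An unadjusted p under 0.05 in edgeR was found for 6 of the 8, against 24.8% of all tested genes. DESeq2 called 1 higher and 3 lower, against 11.7% of all genes called. With sample weights limma voom called 1 higher and 2 lower, against 10.8%. Some edgeR alternatives also called proteases. Without Sept2C111A library 4 it was 1 higher and 3 lower, against 16.5% of all tested genes. Without Sept2C111A library 1 it was 2 lower, against 7.76%. With a replicate block it was 1 higher and 1 lower, against 3.96%, and with no filter 1 higher, against 4.64%. Adam17, a sheddase, was the most abundant, at 374 ± 38.6 CPM in Sept2C111A and 445 ± 28.2 CPM in WT libraries (log2 fold change -0.25, SE 0.083, edgeR adjusted p = 0.095). Adam10, which sheds Cxcl16 from the cell surface, measured 132 and 129 CPM. Dpp4, which trims the amino terminus of Cxcl10 and Cxcl12, measured 5.68, 8.06, 4.12 and 1.80 CPM in Sept2C111A libraries, against 2.19, 2.29, 0.707 and 1.38 CPM in WT libraries (log2 fold change 1.57, SE 0.44, edgeR adjusted p = 0.057). Dpp4 and Adam10 were chosen after their values were seen.

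Of 18 genes of NF-κB and TNF signalling upstream of CXC ligand transcription, 3 fell, 0 rose and 15 did not pass, with a median log2 fold change of -0.11; over all tested genes 3.03% fell and 3.43% rose. The 3 are inhibitors of the pathway that NF-κB itself induces. Nfkbia measured 465 ± 21.6 CPM in Sept2C111A and 605 ± 18 CPM in WT libraries (log2 fold change -0.38, edgeR adjusted p = 0.0051). Tnfaip3, which encodes the deubiquitinase A20, measured 101 ± 20.1 and 146 ± 9.25 CPM (-0.54, adjusted p = 0.033), and Nfkbie 182 ± 11.5 and 219 ± 3.16 CPM (-0.27, adjusted p = 0.027). Without any single WT library only 1 of the 18 was called, against 2.12% to 3.77% of all tested genes, and DESeq2 called 5 lower, against 11.7% of all genes called in either direction. The TNF receptor genes Tnfrsf1a and Tnfrsf1b had log2 fold changes of 0.01 and -0.07 and were not called, and were chosen after their values were seen. Of 11 genes that control the stability of CXC ligand mRNA, 1 fell, 0 rose and 10 did not pass, a share near the 6.46% called over all tested genes. The gene that fell was Mapkapk2, a kinase gene downstream of p38, at 764 ± 30.5 CPM in Sept2C111A and 896 ± 24.8 CPM in WT libraries (-0.23, edgeR adjusted p = 0.047), and it was called in 8 of 18 alternatives. Zfp36, whose protein tristetraprolin destabilizes Cxcl1 and Cxcl2 mRNA, was not called (log2 fold change -0.09, edgeR adjusted p = 0.59) and was chosen after its value was seen.

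Of 16 tested genes that lead from interferon to Cxcl9 and Cxcl10, 4 rose, 2 fell and 10 did not pass, against 3.43% of all tested genes that rose and 3.03% that fell. Irf7 rose, at 305, 507, 386 and 297 CPM in Sept2C111A libraries, against 63.1, 84.9, 64.3 and 93.6 CPM in WT libraries. Irf8, a transcription factor gene of the myeloid lineage, also rose, at 157 ± 14.9 CPM in Sept2C111A and 116 ± 3.50 CPM in WT libraries (log2 fold change 0.44, edgeR adjusted p = 0.0070). Socs3, a feedback inhibitor, fell, at 40.3 ± 9.34 and 90.7 ± 4.35 CPM (-1.17, adjusted p = 0.0011). Irf9 also rose (0.32, adjusted p = 0.043) and Irf1 also fell (-0.34, adjusted p = 0.037), both named after their values were seen. Irf7 was highest in Sept2C111A library 2, at 507 CPM, the library with the highest Cxcl9 and Cxcl10 of its genotype. Among WT libraries Irf7 and Cxcl10 were highest in library 4, and Cxcl9 in library 2. In Sept2C111A library 3 Irf7 was above library 1 (386 and 305 CPM), whereas Cxcl10 was below it (144 and 184 CPM). A link between Irf7 and these ligands was not tested. Ifnb1 had at most 1 read in any library, at or below the 3 counts taken here as the floor of detection, and was not tested. Without Sept2C111A libraries 2 and 3 together, 2 of these 16 rose in place of 4, with 3.86% of all tested genes called in either direction. Leaving out WT library 1, 3 or 4 or Sept2C111A library 2 also gave 2, with 2.12% to 2.99% of all tested genes called. Leaving out Sept2C111A library 1, with 7.76% of all tested genes called, or any single WT library, with 2.12% to 3.77%, gave 1 gene that fell in place of 2.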

How the data were processed

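Poly(A)-selected RNA from 8 BMDM libraries was sequenced, per the labels' protocols. The authors deposited expected counts per gene symbol, which estimate the reads of a gene and need not be whole. Bowtie2, RSEM 1.3.1, DESeq2 1.4.5 and mm10 are named per the submitters' processing notes, with no roles; the sources used here do not give annotation or strandedness, and without strand the reads of overlapping genes cannot be told apart.

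Expected counts were rounded, filtered with filterByExpr (minimum count 10), normalized by TMM and tested for Sept2C111A over WT with edgeR 4.0.16 (quasi-likelihood, R 4.3.3), 2-sided, with genotype as the only term. The SE was computed as the size of the log2 fold change over √F. Log2 ratios within a library had 0.5 added to each count. Values with ± are means and SD over 4 libraries. Depth of 19543958 to 21288493 puts the floor of 3 counts at 0.140 to 0.159 CPM, for counting error only. Alternatives used DESeq2 1.42.0, limma 3.58.1 voom, other factors and filters, a replicate block and left-out libraries. Symbols were matched to RefSeq for 17292 of 17364 genes and lengths to GENCODE for 16684; 8 of 9 members had a promoter window. Pairs of libraries had a mean chi-square per gene of at least 3.87, so none was a copy of another. The scripts were tested on simulated counts. 1 called gene of the interferon list is not reported here by name. Members, lists and the naming rule (up to 3 called genes per list with the smallest adjusted p, otherwise the most abundant) were chosen with earlier results of these data known.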

Additional observations from a re-analysis of the deposited data

How the results depend on the processing

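Cxcl1, Cxcl2 and Cxcl3 were called lower in all 18 alternatives, with log2 fold changes of -1.47 to -1.04, -0.68 to -0.55 and -1.49 to -1.12. The number of CXC ligands called lower was 5 with DESeq2 and with limma voom using sample weights, which added Cxcl12 and Pf4 to the 3 and called 11.7% and 10.8% of all genes, and it was 3 or 4 when 1 library was left out. No alternative called a CXC ligand higher. Over all genes, 428 were called higher and 377 lower. Leaving out 1 library gave 162 to 1094 higher and 104 to 983 lower, lowest without WT library 3 and highest without Sept2C111A library 4. Without Sept2C111A libraries 2 and 3 together it was 282 and 210, with DESeq2 693 and 709, and with sample weights 665 and 678. Of the genes on the pathway lists 11 were called, 5 (without WT library 1, 3 or 4) to 17 (without Sept2C111A library 4) when 1 was left out, and 19 with DESeq2. In the same fits the share of all tested genes called moved as well. It was 6.46% in the main fit, 2.12% to 2.99% without WT library 1, 3 or 4, 16.5% without Sept2C111A library 4 and 11.7% with DESeq2. The log2 ratio of Cxcl2 to Cxcl10 differed by -0.27 to 0.046 without 1 library, above 0 without Sept2C111A library 2, and by 0.061 (exact permutation p = 0.87) without Sept2C111A libraries 2 and 3 together, so its sign is not settled. The same sample numbers are not said to pair the libraries, and the correlation of their deviations was 0.14, 0.096, -0.023 and -0.24, highest with the own number in 1 of 4 cases. With the sample number as a replicate block, 242 genes were called higher, 4 CXC ligands were lower, Pf4 being the added one (adjusted p = 0.017), and the ratio differed by -0.15 (exact sign-flip p = 0.63). With 4 libraries a genotype, Cxcl9 at 62.4 to 138 reads was the ligand with the widest interval among those not called.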
